A study of Mus musculus with 12 samples.

Results

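The prostaglandin synthesis genes described here are 6 mouse genes, chosen by symbol from the 54532 genes of the deposited count table. They are Pla2g4a, which encodes the cytosolic phospholipase A2, the cyclooxygenase genes Ptgs1 (COX-1) and Ptgs2 (COX-2), the prostaglandin E synthase genes Ptges and Ptges2, and the prostacyclin synthase gene Ptgis. All 6 were found and all 6 passed the filter on low counts. They were put together with results of these libraries in view, among them the higher Ptgs2 level at 44 °C. Their differences at 44 °C are therefore given as a description with no p-value, and nothing is read from how many of them differed. Poly(A) RNA was sequenced in 12 libraries of ATDC5, a mouse cell line that the labels describe as wild-type cartilage progenitors and that serves widely as a culture model of cartilage formation. Cultures in serum-containing high sugar DMEM at 37 °C were kept for 10 min at 37 °C, 40 °C or 44 °C, with 4 libraries at each temperature. The labels do not give the time from the end of heating to RNA extraction, and all libraries come from 1 cell line. The series title names chondrocyte growth at different temperatures as its question.

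Prostaglandins are short-lived lipid signals made from arachidonic acid. A phospholipase frees the fatty acid from membranes, a cyclooxygenase turns it into prostaglandin H2, and terminal synthases turn that into prostaglandin E2, prostacyclin and other products that act through G protein-coupled receptors. Ptgs1 is known as the constitutive cyclooxygenase gene and Ptgs2 as the inducible one, an immediate early gene that answers cytokines, growth factors and mechanical load, and prostaglandin E2 is known in cartilage as a regulator of matrix turnover and chondrocyte maturation.

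Libraries held between 16269026 and 19506705 counts. Of the chondrogenic markers 5 of 10 passed the filter. Sox9, the master regulator of cartilage, averaged 48.2 ± 14.95 CPM at 44 °C and 54.2 ± 10.2 CPM at 37 °C (SD), whereas the cartilage genes Matn1, Col9a1 and Hapln1 had no read in any library, which allows up to 3 counts, or between 0.154 and 0.184 CPM. CPM is the usual depth-scaled read count, here on library totals that carry TMM factors, the trimmed means of gene-wise log ratios. Of 10 macrophage and other blood cell markers 3 passed the filter and Adgre1 and Laptm5 had no read. The summed level of this list was 22.3 to 37.1 CPM at 44 °C and 36.2 to 55.8 CPM at 37 °C, with 2 lower. The pan-leukocyte gene Ptprc stayed at or below 0.0634 CPM. Of 6 endothelial markers 3 passed, and their summed level was 4.25 to 6.25 CPM at 44 °C and 2.49 to 3.70 CPM at 37 °C, with 2 higher. Of 7 smooth muscle and perivascular markers 2 passed and both were lower, with a summed level of 127 to 145 CPM at 44 °C and 182 to 212 CPM at 37 °C. Of 7 mesenchymal markers 5 passed and 3 were lower, namely Col3a1 (log2 fold change −1.27), Prrx1 (−0.40) and Vim (−0.32), with a summed level of 3410 to 3884 CPM at 44 °C and 4368 to 4758 CPM at 37 °C. Of 6 hypertrophic cartilage markers 4 passed and Spp1 was lower (−0.51), with a summed level of 2048 to 2951 CPM at 44 °C and 3039 to 4013 CPM at 37 °C. The part of these markers in the results below was not tested, and fewer cells of a type cannot be told apart from less RNA per cell in bulk libraries.

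The 250 bases before the gene start are shown for the 2 cyclooxygenase genes, because the results turn on the contrast between them, together with a short stretch just after the Ptgs2 start. Sequences are from RefSeq on GRCm38.p6 (mm10), plus strand, 5′ to 3′, at chr1:150099781-150100030, chr1:150100037-150100060 and chr2:36230176-36230425. Capitals mark the letters of any of 9 motifs that were searched on both strands.
Ptgs2 before the start: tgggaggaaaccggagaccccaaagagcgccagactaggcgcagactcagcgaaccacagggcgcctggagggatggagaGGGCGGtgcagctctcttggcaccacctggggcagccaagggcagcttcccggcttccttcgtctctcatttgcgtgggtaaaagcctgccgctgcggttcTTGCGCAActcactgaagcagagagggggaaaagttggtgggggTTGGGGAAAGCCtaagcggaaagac
Ptgs2 after the start: accactaCGTCACGTGgagtccgc
Ptgs1 before the start: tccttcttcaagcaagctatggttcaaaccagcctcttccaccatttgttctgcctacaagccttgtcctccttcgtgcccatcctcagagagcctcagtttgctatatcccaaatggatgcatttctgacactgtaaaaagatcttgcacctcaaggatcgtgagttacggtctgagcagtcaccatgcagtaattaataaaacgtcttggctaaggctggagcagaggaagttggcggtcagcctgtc
In Ptgs2 the capitals are, in order, a GC box (GGGCGG), a C/EBP-type match (TTNCNNAA) at 69 bases before the start, and a second C/EBP-type match that overlaps an NF-kB-type match (GGG and CC with any 5 bases between). In the stretch after the start, a CRE half-site (TGACG, read on the minus strand) at base 14 of the gene overlaps an E-box (CACGTG) at base 17. A C/EBP site and an overlapping CRE and E-box are known from work on the mouse Ptgs2 promoter. Positions here count from the annotated gene start, which was not compared with the transcription start used in that work. Among 32851 RefSeq windows of 300 bases, reaching from 250 before to 50 after the start, 40.7% held the C/EBP-type letters, 50.8% the NF-kB-type letters and 35.7% the GC box, whereas 20.8% held the CRE half-site and 7.15% the E-box. No motif lay within the 250 bases of Ptgs1, and its whole window held 1 of the 9, an NF-kB-type match after the start. The heat shock element cores GAANNTTC and TTCNNGAA, in 7.86% and 8.52% of windows, were not among the letters of either cyclooxygenase window. GAANNTTC was in that of Ptges2 and TTCNNGAA in the first window of Pla2g4a. The Ptges2 window also held an E-box and a C/EBP-type match. That of Ptges held an NF-kB-type match, a C/EBP-type match and GC boxes, and the first window of Pla2g4a held C/EBP-type matches. These letters were therefore not particular to Ptgs2 among the members. TATAAA (13.6% of windows) was in the second window of Pla2g4a and AP-1 (TGANTCA, 7.81%) in no member window. The table matched 5 of the 6 genes; Ptgis is named only.

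On a per-length scale Ptges and Ptgs1 were the leading genes of the group. At 37 °C Ptges stood at 51.3 ± 4.65 RPKM and Ptgs1 at 45.8 ± 4.72 RPKM (CPM per kilobase of the deposited gene length, mean ± SD, n = 4), and these neighbours in the order were within their spread of each other. Ptgs2 followed at 18.3 ± 0.676 RPKM, then Pla2g4a at 8.63 ± 1.11, Ptges2 at 6.23 ± 0.55 and Ptgis at 4.38 ± 0.411 RPKM. At 44 °C the order was unchanged, with Ptges at 45.0 ± 6.57, Ptgs1 at 38.1 ± 4.60, Ptgs2 at 30.9 ± 2.89, Pla2g4a at 7.93 ± 0.83, Ptges2 at 6.65 ± 0.474 and Ptgis at 4.24 ± 0.605 RPKM.

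Ptgs2 (ENSMUSG00000032487, chromosome 1, 150100031 to 150108227, plus strand) was the one member whose levels at 44 °C lay apart from those at both other temperatures. Its level was 87.9, 84.5, 82.8 and 80.6 CPM in the 37 °C libraries, 88.8, 106, 92.5 and 92.6 CPM in the 40 °C libraries and 131, 144, 132 and 159 CPM in the 44 °C libraries. Every 44 °C library was above every other library, and the lowest 40 °C library was above the highest 37 °C library by less than 1 CPM. The level at 44 °C was 1.69-fold that at 37 °C, a log2 fold change of 0.75 ± 0.071 (SE), and 1.49-fold that at 40 °C (0.58 ± 0.071). By log2 fold change it stood at rank 171 from the top of the 14424 genes tested for 44 °C against 37 °C. At 40 °C against 37 °C the log2 fold change was 0.18 ± 0.072 and did not pass (edgeR quasi-likelihood test, adjusted p = 0.823).

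**Figure D1:**
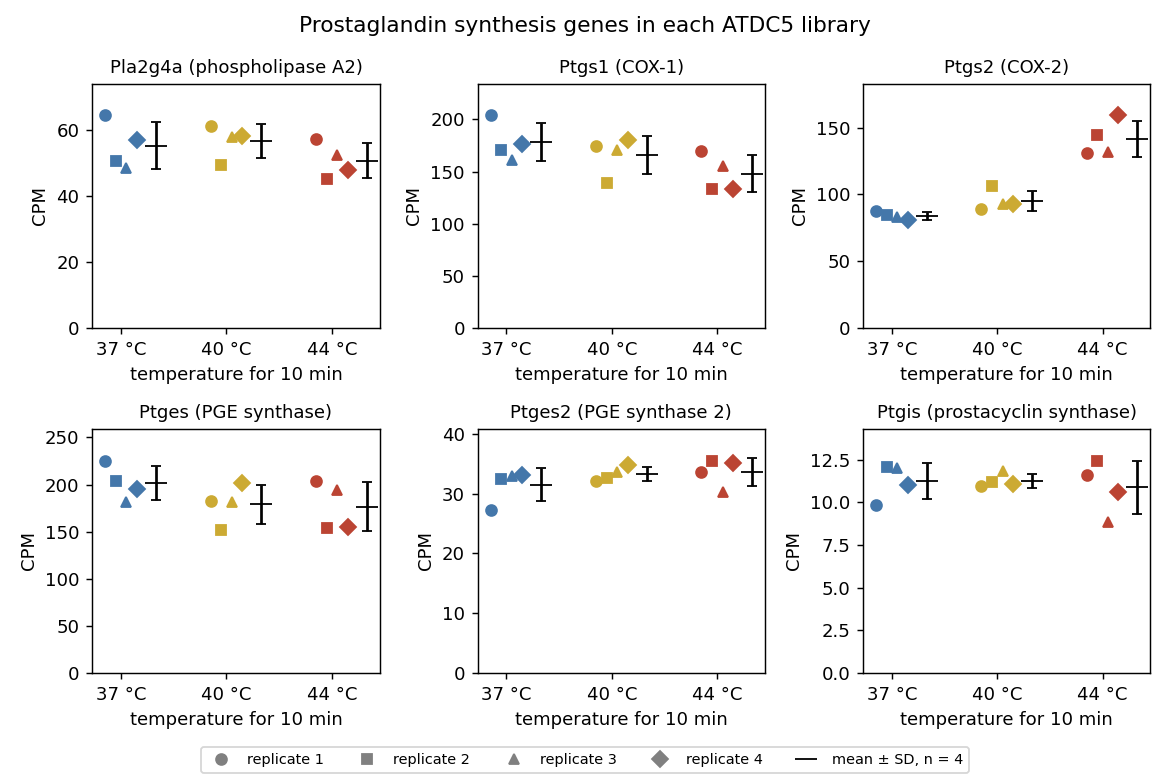
CPM of each of the 6 prostaglandin synthesis genes (vertical axes, from 0) in every library at 37 °C, 40 °C and 44 °C, with symbols for replicates and bars for mean ± SD (n = 4). Ptgs2 lies between 131 and 159 CPM at 44 °C, above all libraries at 37 °C and 40 °C, while the temperatures overlap for the other 5 genes.

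Ptgs1 (ENSMUSG00000047250, chromosome 2, 36230426 to 36252272) encodes the cyclooxygenase that most cells carry at rest, and its values leaned lower at 44 °C. It had 204, 171, 161 and 177 CPM in the 37 °C libraries, 174, 139, 170.5 and 180.4 CPM in the 40 °C libraries and 169.8, 133, 155 and 133 CPM in the 44 °C libraries. The 44 °C libraries reached lowest, but their highest overlapped the lower 37 °C values. The log2 fold change was −0.27 ± 0.097 for 44 °C against 37 °C and −0.10 ± 0.097 for 40 °C against 37 °C (adjusted p = 0.840). Over 20 alternative fits the 44 °C against 37 °C value lay between −0.34 and −0.14. Ptgs1 was not called in the main fit but was called lower in 5 of the 20, which are named at the end.

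The ratio of Ptgs2 to Ptgs1 per length sets both cyclooxygenase mRNAs against each other within a library, free of library scaling. It was 0.366, 0.420, 0.436 and 0.387 in the 37 °C libraries, 0.432, 0.648, 0.460 and 0.435 in the 40 °C libraries and 0.653, 0.921, 0.722 and 1.01 in the 44 °C libraries. All 44 °C libraries were above all others, although 44 °C replicate 1 and 40 °C replicate 2 nearly met. The means were 0.402 ± 0.0316, 0.494 ± 0.103 and 0.827 ± 0.167 (SD, n = 4 each). The mRNA of the inducible enzyme came near that of the constitutive one in 44 °C replicates 2 and 4 (0.921 and 1.01). It stayed further below in 44 °C replicates 1 and 3 (0.653 and 0.722).

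**Figure D2:**
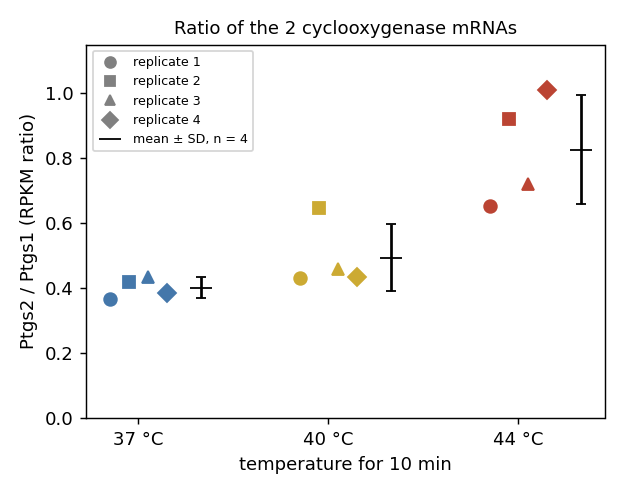
Ratio of Ptgs2 to Ptgs1 RPKM (vertical axis, from 0) in each library by temperature, with mean ± SD (n = 4). The 44 °C libraries run from 0.653 to 1.01, and those at 37 °C from 0.366 to 0.436.

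Pla2g4a (ENSMUSG00000056220, chromosome 1, 149829618 to 149961290, minus strand) encodes the calcium-activated enzyme that releases arachidonic acid. It had 64.4, 50.7, 48.5 and 57.0 CPM in the 37 °C libraries, 61.3, 49.5, 57.8 and 58.1 CPM in the 40 °C libraries and 57.3, 45.2, 52.3 and 47.9 CPM in the 44 °C libraries. The temperatures overlapped, with log2 fold changes of −0.12 ± 0.098 for 44 °C against 37 °C and 0.04 ± 0.098 for 40 °C against 37 °C (adjusted p = 0.935). Pla2g4a lies next to Ptgs2 on chromosome 1, with 138740 bases and the genes Ptgs2os, Gm19136 and Gm44329 between them. Ptgs2os, on the minus strand, starts 67 bases before Ptgs2 and had between 0 and 6 counts per library.

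Of the terminal synthases, Ptges (ENSMUSG00000050737, chromosome 2, 30889471 to 30929863) encodes the inducible microsomal prostaglandin E synthase that is known to work with COX-2. It had 225, 204, 182 and 195 CPM in the 37 °C libraries, 182, 152, 181 and 202 CPM in the 40 °C libraries and 203, 154, 194 and 155 CPM in the 44 °C libraries. Its 44 °C libraries fell into a higher and a lower pair, and the temperatures overlapped. The log2 fold change was −0.19 ± 0.10 for 44 °C against 37 °C and −0.17 ± 0.10 for 40 °C against 37 °C (adjusted p = 0.823). Ptges2, the gene of a membrane-bound prostaglandin E synthase, lay between 30.3 and 35.5 CPM at 44 °C, 32.2 and 34.7 CPM at 40 °C and 27.3 and 33.2 CPM at 37 °C. Its log2 fold change was 0.10 ± 0.078 for 44 °C against 37 °C and 0.08 ± 0.078 for 40 °C against 37 °C (adjusted p = 0.840), and the first was 0.03 without 37 °C replicate 1. Ptgis, whose product makes prostacyclin, lay between 8.84 and 12.4 CPM at 44 °C and 9.84 and 12.1 CPM at 37 °C, with log2 fold changes of −0.05 ± 0.11 for 44 °C and 0.01 ± 0.11 for 40 °C against 37 °C (adjusted p = 0.992 for the second).

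Across all genes tested 13.7% were called for 44 °C against 37 °C at an adjusted p under 0.05, 6.58% higher and 7.11% lower. Of the 6 members 1 was called, Ptgs2, and its higher level was known when the genes were chosen, so the count says nothing further. For 44 °C against 40 °C 5.02% of genes were called, 1.88% higher and 3.14% lower, and of the members Ptgs2 alone. For 40 °C against 37 °C 0% of genes were called by edgeR's quasi-likelihood test, and no member was. At an unadjusted p under 0.05 by the same test that comparison held 752 of the 14424 genes tested. Of the members it held 1, Ptgs2, from which nothing is read. DESeq2 called 4 genes and no member. The groups did not overlap for Ptgs2 in all 3 comparisons, against 17.8% of genes for 44 °C against 37 °C, 3.83% for 40 °C against 37 °C and 10.7% for 44 °C against 40 °C. These comparisons share libraries.

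Within each temperature the members did not vary alike. Pla2g4a, Ptgs1 and Ptges had their lowest level in the same library of every temperature, namely 37 °C replicate 3, 40 °C replicate 2 and 44 °C replicate 2. All 3 were highest in replicate 1 at 37 °C and at 44 °C. After each gene was centred at its mean per temperature, the first principal component over all genes carried 29.8% of what variance remained. The libraries, with each gene centred only at its mean over all 12, were then projected on this component, called the replicate axis here, so that scores could differ between temperatures. They averaged −0.424 ± 0.780 in the 37 °C, 0.012 ± 1.02 in the 40 °C and 0.412 ± 1.24 in the 44 °C libraries (SD over 4 libraries each). Per SD of the replicate axis the log2 level changed by −0.17 ± 0.016 for Ptges, −0.16 ± 0.016 for Ptgs1 and −0.14 ± 0.025 for Pla2g4a (coefficient ± SE), against 0.07 ± 0.022 for Ptgs2, 0.04 ± 0.031 for Ptges2 and 0.05 ± 0.048 for Ptgis. Of all genes tested, 9 in 10 had slopes between −0.28 and 0.21, so all 6 lie inside the usual range. The slopes of Ptgs2 and Ptgs1 had opposite signs, so their ratio also varied with the axis. At 44 °C the ratio was higher in replicates 2 and 4, which had higher scores than replicates 1 and 3. At 40 °C it was highest in replicate 2 (0.648), which had the highest score of that temperature. The part of the axis in the ratio's difference between temperatures was not tested. With the axis as a covariate the 44 °C against 37 °C log2 fold change was 0.69 ± 0.054 (SE) for Ptgs2, −0.14 ± 0.037 for Ptgs1, −0.06 ± 0.038 for Ptges and −0.01 ± 0.058 for Pla2g4a. All 4 values were closer to 0 than without the covariate and their SEs were smaller. With the axis Ptges2 had 0.06 ± 0.073, also closer to 0. Ptgis had −0.09 ± 0.11, farther from 0 than the −0.05 ± 0.11 without it. Since the scores differ between temperatures, the covariate can also take up part of a temperature difference.

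**Figure D3:**
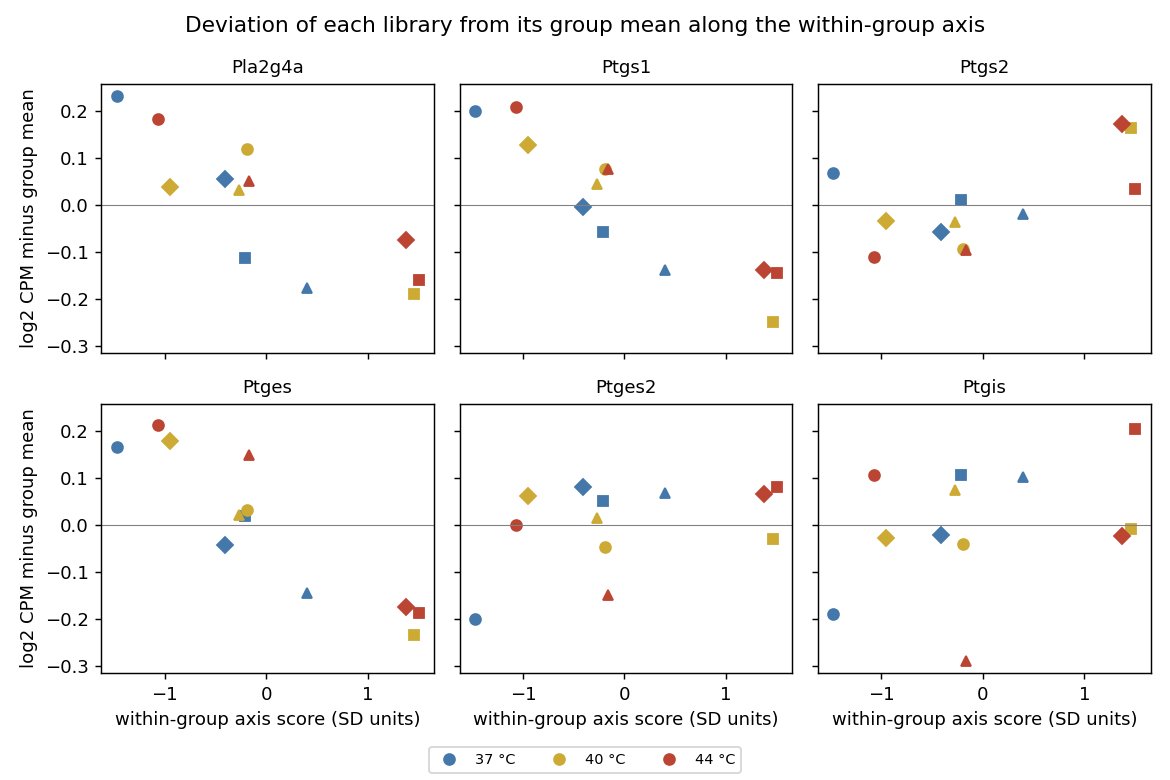
Deviation of each library's log2 CPM from its temperature mean (vertical axes) against the library's score on the replicate axis (horizontal axes, SD units), with colours for temperatures and symbols for replicates as in the plot of CPM by library. Pla2g4a, Ptgs1 and Ptges are lowest in libraries with high scores. Ptgs2 is highest in replicate 2 at 40 °C (score 1.46) and in replicate 4 at 44 °C (score 1.37), which are high scores. At 37 °C Ptgs2 is instead highest in replicate 1, which has the lowest score of all libraries (−1.47).

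Other genes of the prostaglandin pathway and regulators of Ptgs2 were taken from a list of 87 genes in 8 roles, of which 54 passed the filter. The regulators are 13 transcription factors and 10 RNA-binding proteins, all of which passed. The list was drawn up by role, but with earlier results of these data known. Its shares, adjusted p-values and calls are therefore given as a description. At 44 °C against 37 °C 2 rose and 5 fell, which is 13.0% of those tested beside 13.7% of all genes, with a median log2 fold change of −0.04 beside −0.00 over all genes. Both genes that rose were regulators. Of those that fell, 2 were transcription factors, 1 was an RNA-binding protein and 2 were genes of transport and breakdown. The share of 13.0% is therefore that of a mixed list and not of the lipid pathway alone. The count of 7 was 13 without 44 °C replicate 1, 9 in the fit without 40 °C replicate 2 and 12 after adjusting for the replicate axis (described above), 4 without 40 °C replicate 1, and 3 without any one of 37 °C replicates 1, 2 and 4 and 44 °C replicates 2 and 4. By edgeR's quasi-likelihood test no gene of arachidonate release, reacylation, the other terminal synthases, the receptors or the leukotriene branch was called. In that order 3 of 9, 0 of 5, 0 of 4, 2 of 6 and 0 of 2 tested genes had an unadjusted p under 0.05. Among all genes tested 4455 of 14424 did, so nothing is read from these counts. DESeq2 called Pla2g15 of arachidonate release, and so did the fits without 40 °C replicate 2, without 40 °C replicate 3 and with the replicate axis. Without 44 °C replicate 1 the release genes Dagla and Mgll and the receptor genes Ptger2 and Ptgfr were called lower and the receptor gene Ptger3 higher. At 40 °C against 37 °C no listed gene was called by edgeR or DESeq2. By edgeR's test 5 of the 54 had an unadjusted p under 0.05, beside 752 of all 14424 genes tested.

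Of the genes of prostaglandin transport and breakdown 2 of 5 measured fell at 44 °C and none rose, beside 7.11% of all genes called lower and 6.58% higher. Slco2a1, which encodes the prostaglandin transporter that carries the lipid into cells for breakdown, had 191, 154, 169.5 and 147 CPM in the 44 °C libraries, against 222, 205, 206 and 219.5 CPM in the 37 °C libraries. All 44 °C libraries were below all 37 °C libraries. It fell by 0.37 ± 0.076 on the log2 scale (edgeR quasi-likelihood adjusted p = 0.00673), and was also lower than at 40 °C (−0.32 ± 0.076, adjusted p = 0.0258), a call lost without any one of 40 °C replicates 3 and 4 and 44 °C replicates 2, 3 and 4, and from those temperatures alone. Zadh2, which encodes a prostaglandin reductase, fell to 59.7 ± 4.31 CPM at 44 °C, against 68.8 ± 2.91 CPM at 37 °C (−0.20 ± 0.062, adjusted p = 0.0414), a call kept in 9 of 21 alternatives. Ptgr1, the gene of another prostaglandin reductase, had 32.7 ± 4.52 CPM in the 44 °C libraries, against 40.8 ± 4.49 CPM in the 37 °C libraries (−0.32 ± 0.11, adjusted p = 0.0698), and was called lower in 8 alternatives, DESeq2 and the replicate block among them. Hpgd, the gene of the main prostaglandin-degrading dehydrogenase, did not pass the filter and had at most 4 counts in a library.

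Transcription factors known to act at the Ptgs2 promoter gave 2 lower genes and 1 higher of 13 measured, or 23.1% beside 13.7% of all genes. Cebpd, a C/EBP factor gene, had 76.4, 60.4, 63.5 and 62.5 CPM in the 44 °C libraries, against 114, 101, 93.1 and 104 CPM in the 37 °C libraries. The groups did not overlap, and the log2 fold change was −0.65 ± 0.089 (adjusted p = 0.000522). Cebpb, the second C/EBP gene listed, had 176, 144, 128 and 129 CPM at 44 °C, against 216, 206, 174 and 207 CPM at 37 °C, with 44 °C replicate 1 just above 37 °C replicate 3. It fell by 0.48 ± 0.097 on the log2 scale (adjusted p = 0.00622). For 44 °C against 37 °C the calls of Slco2a1, Cebpb and Cebpd were kept in all 21 alternatives, with adjusted p-values up to 0.0263, 0.0236 and 0.00309. Hsf1, which encodes the principal heat-responsive transcription factor, rose to 102 ± 10.4 CPM at 44 °C, against 85.5 ± 5.86 CPM at 37 °C (0.26 ± 0.079, adjusted p = 0.0435), a call kept in 10 of 21 alternatives. Nfkb1 (−0.12 ± 0.045, adjusted p = 0.0901) and Egr1 (−0.36 ± 0.21, adjusted p = 0.259) were not called, although their 44 °C libraries lay below all 37 °C libraries. With the replicate axis both were called lower, as was Nfkb1 by DESeq2 and Egr1 in the pairwise fit. For 44 °C against 40 °C, where 5.02% of all genes were called, Cebpb (−0.37, adjusted p = 0.0385), Cebpd (−0.39, adjusted p = 0.0205) and the NF-kB gene Nfkb1 (−0.17, adjusted p = 0.0423) fell and none of the 13 rose. No listed gene was called in that comparison without any one of 40 °C replicates 3 and 4 and 44 °C replicates 2, 3 and 4, nor from those temperatures alone.

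RNA-binding proteins known to act on the Ptgs2 message gave 1 higher and 1 lower gene of 10, or 20% beside 13.7% of all genes. Tial1, which encodes a translational silencer related to TIA-1, rose to 87.3 ± 4.96 CPM at 44 °C, against 75.5 ± 2.38 CPM at 37 °C (0.21 ± 0.060, adjusted p = 0.0340). Zfp36l2, which encodes a decay factor for AU-rich mRNAs and had the highest level per length of this role, fell to 300 ± 13.8 CPM at 44 °C, against 334 ± 12.5 CPM at 37 °C (−0.15 ± 0.048, adjusted p = 0.0448). These calls were kept in 13 and 8 of 21 alternatives. Rbm3 was called lower with the replicate axis and Zfp36l1 was called lower without 44 °C replicate 1.

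In the roles without a call the leading genes per length gave small values. The lysosomal phospholipase gene Pla2g15 averaged 78.0 ± 1.74 CPM in the 44 °C libraries, against 69.5 ± 1.58 CPM in the 37 °C libraries, without overlap (log2 fold change 0.17 ± 0.054, adjusted p = 0.0527). Acsl4, whose product couples arachidonic acid to coenzyme A, had −0.03 ± 0.056 (adjusted p = 0.718). Ptges3, the gene of the cytosolic prostaglandin E synthase and HSP90 co-chaperone p23, had 0.14 ± 0.098 (adjusted p = 0.347), and the leukotriene hydrolase gene Lta4h had −0.07 ± 0.082 (adjusted p = 0.604). Ptger4, which encodes the EP4 receptor for prostaglandin E2, was the leading receptor gene per length at 1.09 RPKM over all libraries. Its level averaged 7.99 ± 1.22 CPM in the 44 °C libraries, against 7.38 ± 0.877 CPM in the 37 °C libraries (log2 fold change 0.12 ± 0.14, adjusted p = 0.614). Of the 9 receptor genes 6 passed the filter, and Ptgdr had no read. The genes of prostaglandin D synthases, Ptgds and Hpgds, and of thromboxane synthase, Tbxas1, did not pass the filter and had at most 3, 17 and 6 counts in a library.

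**Figure D4:**
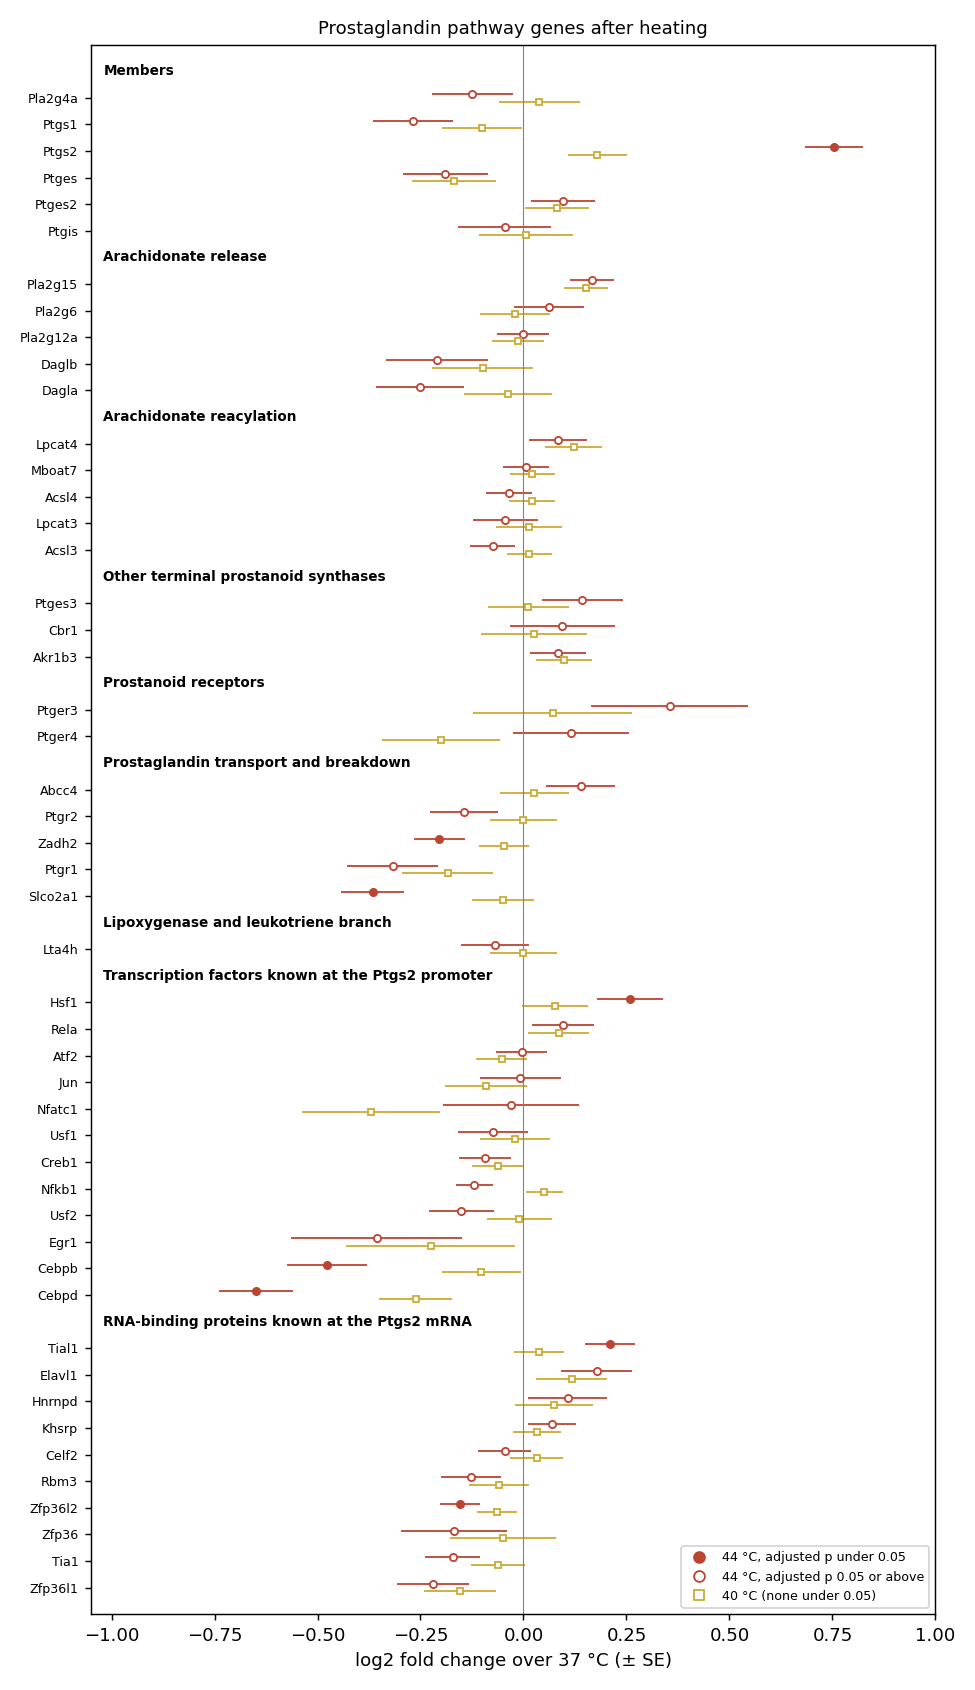
Log2 fold change over 37 °C (horizontal axis, ± SE) at 44 °C (red circles, filled where the adjusted p was under 0.05) and 40 °C (yellow squares) for the 6 members and the 43 listed pathway genes with a mean of at least 5 CPM, by role. Ptgs2 lies farthest right at 0.75 and Cebpd farthest left at −0.65.

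Genes whose pattern over the 12 libraries was among the nearest to that of Ptgs2 were Cdh6, Gtpbp10, Rnpc3, Ccdc88c and Rnd1. Likeness was measured as the root mean square difference of log2 CPM after centring each gene at its own mean, among 9880 protein-coding genes with a mean of at least 5 CPM. It was 0.10 for the cadherin gene Cdh6 and lay between 0.12 and 0.13 for the other 4, where the median gene had 0.34. Cdh6 had 14.6, 17.1, 14.3 and 17.1 CPM in the 44 °C libraries, against 9.89, 9.10, 9.44 and 8.42 CPM in the 37 °C libraries. Like Ptgs2, it was higher in every 44 °C library than in any 37 °C or 40 °C library. The measure follows from the temperature difference for the most part, and it is a description.

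Strand use in counting is not given, so reads in stretches shared by overlapping genes cannot be told apart. The genes that overlap a member in the deposited table had at most 2 counts per library in Pla2g4a, 26 in Ptgs1, 6 in Ptges and 4 in Ptgis, where the members themselves had at least 151.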

How the data were processed

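The authors deposited raw read counts per gene, 1 column per sample, with gene lengths and mm10 coordinates. The tools named, per the submitters' processing notes, are featureCounts 1.5.0-p3, StringTie 1.3.3b, HISAT2 2.0.5 and fastp, without their order or role. Strand use and the handling of multiply mapped reads are not given in the sources used here.

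The members and lists were chosen with earlier results of these data known. In R 4.3.3 with edgeR 4.0.16, filterByExpr (minimum count 10, total 15) kept 14424 of 54532 genes. All 12 libraries entered 1 quasi-likelihood model, with a mean for each temperature and TMM scaling. All adjusted p-values are from edgeR's two-sided quasi-likelihood test with Benjamini-Hochberg adjustment over all genes tested. SE is the log2 fold change over the square root of F. RPKM was computed from the deposited gene length. The fit was tested on simulated data. Named genes were the members, the called pathway genes, the leading gene per length of each role, and those nearest to Ptgs2, of which 1 is not reported here.

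Alternatives were library totals, RLE factors, DESeq2 1.42.0, other filters and thresholds, a pairwise fit, a replicate block, the replicate axis and leaving out each library. The 18 pairs of libraries within temperatures differed by chi-square per degree of freedom of 2.85 to 21.0, so no library was a copy. The design text calls them biological replicates but names no separate cultures, so p-values measure only the spread between these libraries, which may be technical. Depth was 16269026 to 19506705 counts, and floors cover counting error only.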

Additional observations from a re-analysis of the deposited data

Results flagged for a closer look

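Of 72 groups of 4 libraries examined (24 genes at 3 temperatures), 3 held a library far from the others, where chance flags about 1 in 20. Ptges2 in 37 °C replicate 1 had 27.3 CPM, below the 32.5 to 33.2 CPM of the other 37 °C libraries. Rnpc3 in 40 °C replicate 2 had 19.5 CPM, above the 13.7 to 14.5 CPM of the others. Ccdc88c in 37 °C replicate 3 had 5.78 CPM, above the 5.07 to 5.16 CPM of the others.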

How the results depend on the processing

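Over 20 alternative fits the log2 fold change of Ptgs2 lay between 0.69 and 0.79 for 44 °C against 37 °C and between 0.51 and 0.63 for 44 °C against 40 °C. For 44 °C against 37 °C 1975 genes were called, 3146 with the replicate axis as a covariate, 630 at an adjusted p under 0.01, and 979 to 3355 on leaving out 1 library each, lowest without 37 °C replicate 1 and highest without 44 °C replicate 1. The listed pathway genes called were 12 with the axis, 3 at 0.01 and 3 to 13 on leaving out libraries. With the axis, with no filter beyond 1 count and with the replicate block 2 members were called, Ptgs2 and, lower, Ptgs1. On leaving out libraries 1 to 2 were called, with Ptgs1 lower without 40 °C replicate 2 and without 44 °C replicate 1. Nothing is read from these counts. For 40 °C against 37 °C 0 genes were called, 4 by DESeq2, 13 with no filter, 11 with the axis, and 0 to 1 on leaving out libraries. For 44 °C against 40 °C 724 genes were called, 1220 by DESeq2, 334 from those temperatures alone, 2535 with the axis, 270 at 0.01, and 394 to 1265 on leaving out libraries. Of the pathway genes 1 was called there with library totals, 0 from those temperatures alone, 8 with the axis, 0 at 0.01, and 0 to 4 on leaving out libraries. Members called there were 2 with the axis, Ptgs2 and, lower, Ptgs1, and 1 to 1 on leaving out libraries. With library totals, 396 genes were higher and 355 lower in that comparison, where TMM gave 271 and 453. The cause of these shifts was not tested.

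For 44 °C and 37 °C, deviations of samples with the same replicate number had r from −0.151 to 0.366, and 1 of 4 libraries correlated best with its own number. The labels do not say that the numbers pair samples. With 4 libraries per temperature these correlations cannot decide it. With the replicate block 2557 genes were called for 44 °C against 37 °C, 0 for 40 °C against 37 °C and 901 for 44 °C against 40 °C. Depth limits genes near the floor of 0.154 to 0.184 CPM; no member was near it.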
